A study of Drosophila melanogaster with 12 samples.

Results

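Wing discs of larvae mutant for scribble (scrib) throughout, called S, were compared with discs of the wild-type control condition, called WT, across all 9444 genes that passed a filter on low counts. Each group had 3 libraries, S replicates 1 to 3 and WT replicates 1 to 3, which are 6 of the 12 libraries of the study, and each library came from its own pool of 60 wing discs taken 6 days after egg laying. S larvae were homozygous for w- and carried the scrib1 allele on an FRT82B chromosome over the deficiency Df(3R)BSC752, and their genotype lists no Flp, Gal4, GFP or Gal80 transgene. WT larvae carried y-, w- and the abxUbx-Flp recombinase over w-, the driver Act>y+>Gal4 with UAS eGFP on the second chromosome, and FRT82B tubGal80 over FRT82B on the third. Gal4 in this design works from the Actin promoter only after recombination removes the y+ cassette, in cells that have lost tubGal80. The genotype text of WT replicates 2 and 3 names UAS Nicd, a transgene for activated Notch, in place of the + of replicate 1, although their condition reads as wild type. S and WT discs therefore differed in scrib, in 1 copy of every gene that the deficiency removes and in all of the listed transgenes, and these cannot be told apart by genotype. The other 6 libraries, 3 with activated Notch (N, with UAS Nicd) and 3 with activated Notch and scrib1 (NS, with the driver, UAS Nicd and FRT82B scrib1), entered the fit for a shared estimate of the spread between pools, and NS discs are set beside S discs at the end. The p-values measure the spread between pools of discs within a group.

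Scribble is a scaffold protein of the basolateral cell cortex of epithelia that acts with Discs large and Lethal (2) giant larvae to separate the apical from the basolateral membrane. Wing discs that lack it lose their single-layered epithelial form and grow into masses in larvae whose pupariation is late or fails. The stress kinase JNK, the cytokines of the Unpaired family, which signal through JAK/STAT, and the insulin-like peptide Ilp8, which delays pupariation, are known parts of the response of discs to such damage.

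Library totals were 33356794 to 39473260 counts in S and 37721478 to 39572136 counts in WT. S replicate 3 held fewer counts of long transcripts than the other S libraries, with a Spearman correlation across genes between its log ratio to them and exon length of −0.43. For NS replicate 3, set against the other NS libraries, the same correlation was −0.72. NS replicate 3 is outside the comparison but enters the shared estimate of the spread. Over all genes the S over WT change moved with length: the median log2 change was 0.32 in the fifth of genes with the shortest exon sequence and −0.25 in the fifth with the longest, and without S replicate 3 these medians were 0.19 and −0.15. A fit with offsets corrected for exon length brought them to 0.02 in both. Median changes of gene lists below are therefore given with that correction where it matters. S replicate 1 held more RNA of fat body and neuron markers than the other S libraries, and haemocyte markers differed between S libraries, with the values given with the markers below.

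The genes that mark the genotypes were read first. scrib had 208, 201 and 129 CPM in S discs, against 348, 448 and 369.8 CPM in WT discs. Every S library lay below every WT library, but the change did not pass the test over the 12 libraries (log2 change −1.12 ± 0.46, adjusted p = 0.0978). scrib was called lower with DESeq2 (adjusted p = 0.0355), with S and WT libraries fitted alone (adjusted p = 0.0105), without S replicate 3 and NS replicate 3 (adjusted p = 0.000266), with the length correction (adjusted p = 6.26e-05) and without NS replicate 3 (adjusted p = 0.000792). The level of a transcript is no measure of its protein. w, the white gene, which also serves as a marker on many transgenes, had 18.2, 33.4 and 34.9 CPM in S discs, against 432, 393 and 286 CPM in WT discs. Every S library lay far below every WT library (log2 change −3.68 ± 0.26, adjusted p = 1.2e-05), while N and NS libraries, whose genotypes also list transgenes, held 368 to 466 CPM. y fell as well (log2 change −3.93 ± 0.49, adjusted p = 0.000318), and so did ry (log2 change −2.32 ± 0.42, adjusted p = 0.00351). N, the Notch receptor gene, had 656, 604 and 287 CPM in S discs, against 652, 885 and 707 CPM in WT discs, and its ranges overlapped (log2 change −0.54 ± 0.40, adjusted p = 0.344). Libraries of the 2 groups with activated Notch held 2236, 2016 and 2016 CPM of this gene (N discs) and 1602.5, 1458 and 501 CPM (NS discs). Whether WT replicates 2 and 3 express UAS Nicd was not tested.

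scrib lies on chromosome 3R at 26536350 to 26604051 (dm6 coordinates from the Ensembl annotation of BDGP6), and the tested genes beside it were read in order. No source used here gives the breakpoints of Df(3R)BSC752. Along the chromosome from scrib towards higher coordinates, 7 tested genes in a row had a log2 change under −0.5: scrib, TwdlM, CG6425, CG5484, CG6420, Tl and Lerp, with a median of −1.27 and 4 of them called lower. CG5484 had 30.0, 32.5 and 39.1 CPM in S discs, against 74.4, 81.8 and 76.5 CPM in WT discs, a log2 change of −1.20 (adjusted p = 0.000233). CG6425 had 8.62, 8.9 and 7.3 CPM in S discs, against 18.6, 21.5 and 19.9 CPM in WT discs, a log2 change of −1.27 (adjusted p = 0.000197). No S library overlapped a WT library for either gene, nor for CG6420 (log2 change −1.60 ± 0.23, adjusted p = 0.000916). Tl, the Toll receptor, was lower too (log2 change −1.32 ± 0.38, adjusted p = 0.0298), a call that did not hold in 4 of the 7 fits that leave out a library, with an adjusted p of up to 0.0939 without WT replicate 2. A longer stretch, chosen after the values were seen, runs from CG5447 to T48 (3R, 26452534 to 26910997) and holds 19 tested genes, of which 18 had a log2 change below 0, 10 were called lower and 0 higher, with a median of −1.12. The 62 other tested genes in the window of 40 on each side had a median of −0.17. His2Av, a histone variant gene in that stretch, had 338, 385 and 437 CPM in S discs, against 649, 577 and 669.9 CPM in WT discs, and its log2 change was −0.71 (adjusted p = 0.00565). The first gene past T48, Ets97D, was not lower (0.19, adjusted p = 0.306). Genes of that stretch are described below only where named. They stay in all counts of called genes and list members below, as scrib does in the polarity and septate junction lists.

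**Figure D1:**
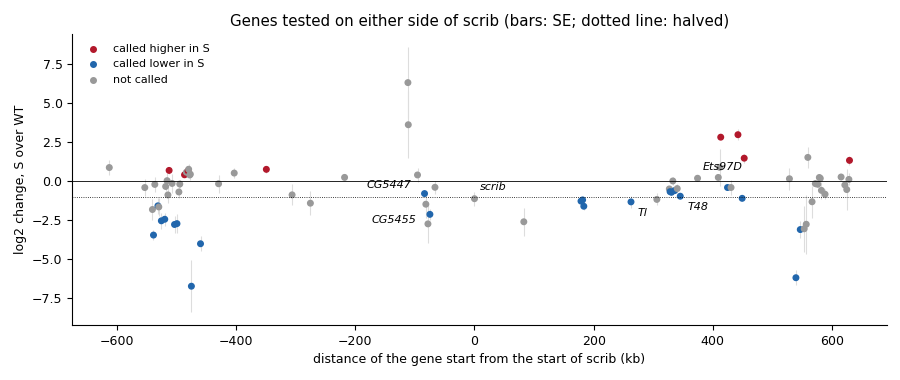
Log2 change of S over WT (vertical axis, bars show the SE) for the tested genes on either side of scrib, against the distance of each gene's start from the start of scrib in kb. Of the 19 genes from CG5447 to T48, 18 lie below 0, with a median of −1.12 near the dotted line at −1, and the 62 genes farther out have a median of −0.17.

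In S discs 1181 genes were called higher, 12.5% of the genes tested, and 1000 were called lower, 10.6%, at an adjusted p under 0.05 in edgeR's quasi-likelihood test. The quartiles of all log2 changes were −0.46 and 0.48. Among the called genes 556 were at least 2-fold higher, 5.89% of all tested, and 682 at least 2-fold lower, 7.22%, and changes of at least 8-fold were found for 157 higher and 214 lower genes, 1.66% and 2.27%. All 3 S libraries lay above all 3 WT libraries for 27.0% of the genes tested and below them for 23.9%. Counts depended on the libraries: leaving out NS replicate 3 gave 2268 higher and 1988 lower genes. Leaving out S replicate 2 gave 744 and 633, WT replicate 1 gave 602 and 617, and WT replicate 2 gave 559 and 618. In none of the 7 fits that leave out an S library, a WT library or NS replicate 3 was a called gene called in the opposite direction, and 512 of the higher genes, 43.4%, and 548 of the lower genes, 54.8%, were called in all 7. Counts of fewer than 3 members of a list also moved between these fits and are not followed there. Every gene named below as higher or lower than in WT discs was called in all 7 of these fits unless the text says where its call was lost or that it was not followed. This does not cover the other alternatives. Nor does it cover the calls of S against NS discs, which were not followed over these fits. Of the 214 called genes named here, 120 lost their call under at least 1 of 17 alternatives. With WT replicate 1 as the one WT library 116 of them lost it, among them Mmp1, Ets21C, cher, FASN1, chinmo and upd2. Without the 3 libraries richest in Lsp1beta 47 lost it, among them Gapdh2, fj and E(spl)m7-HLH. Genes said below not to pass are those not called in the fit over 12 libraries, and of the 71 named ones 39 were called under at least 1 alternative. Without NS replicate 3, 25 of these were called: ACC, brp, dpp, Drs, GstD1, kibra, l(2)gl, mys, PCNA, puc, Pvr and verm as higher, and aPKC, CycE, Dcp-1, Dl, Eip75B, hep, hop, Hsf, LanB2, ptc, scrib, sd and smo as lower. In these pooled discs, fewer cells of a type and less RNA per cell cannot be told apart.

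**Figure D2:**
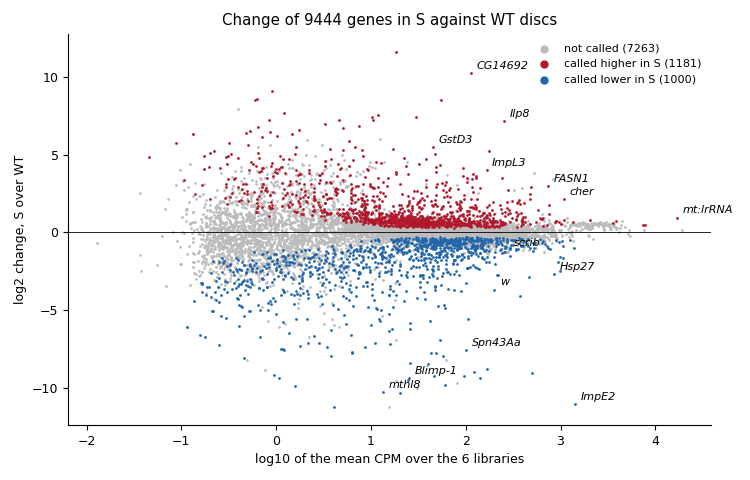
Log2 change of S over WT (vertical axis) against the log10 of the mean CPM over the 6 libraries for the 9444 tested genes, with called genes in red (higher) and blue (lower). Genes with large changes are found at low and high levels, from CG14692 and Ilp8 above to ImpE2 and Hsp27 below.

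Chromosome arms took similar shares, from 10.8% of tested genes higher on 3R to 13.5% on 2L, and from 9.7% lower on X to 12.4% on 3L. The small chromosome 4 had 13 of its 83 tested genes higher and 2 lower (15.7% and 2.4%, against 12.5% and 10.6% of all genes). Of the 13 tested genes of the mitochondrial genome 4 were higher and 0 lower (30.8% and 0.0%), with a median log2 change of 0.63.

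Among the 15 called genes with the highest log2 change were several nearly silent in WT discs. CG14692, a gene without an assigned role in the files, had 205.3, 219.6 and 250.0 CPM in S discs, against 0.205, 0.154 and 0.186 CPM in WT discs. The 3 S libraries were close to each other and far above WT (log2 change 10.25 ± 0.43, adjusted p = 1.14e-06). CG12911 had 43.2, 15.6 and 267 CPM in S discs, against 0.359, 0.256 and 0.256 CPM in WT discs. For CG12911 the log2 change was 8.53 ± 1.10 (adjusted p = 0.000407). CG31601 had 28.9, 21.9 and 58.5 CPM in S discs, against 0.0257, 0 and 0 CPM in WT discs, where WT rests on 1 count, so that no fold is given (adjusted p = 0.00131). CG13215 had 13.5, 18.5 and 39.3 CPM in S discs, against 0.154, 0.0513 and 0.163 CPM in WT discs. For CG13215 the log2 change was 7.55 ± 0.67 (adjusted p = 4.58e-05). Tdc2, a tyrosine decarboxylase of tyramine and octopamine synthesis, had 11, 15.9 and 34.8 CPM in S discs, against 0.128, 0.0769 and 0.14 CPM in WT discs. For Tdc2 the log2 change was 7.44 ± 0.50 (adjusted p = 1.07e-05). In CG12911, CG31601, CG13215 and Tdc2, S replicate 3 was well above the other S libraries, and no S library overlapped WT. GstD3, a glutathione S-transferase, had 56.7, 66.2 and 142 CPM in S discs, against 2.05, 2.33 and 1.47 CPM in WT discs. For GstD3 the log2 change was 5.50 ± 0.47 (adjusted p = 3.79e-05). Cpr47Eb, a cuticle protein, had 18.4, 17.6 and 63 CPM in S discs, against 0.462, 1.1 and 0.791 CPM in WT discs. For Cpr47Eb the log2 change was 5.39 ± 0.87 (adjusted p = 0.00171). Besides Ilp8, which is given below, CG31370, CG40485 and CG42492 were the other genes of this group with a call in all 7 fits, at log2 changes of 5.32, 6.73 and 5.89. CG42492 was highest in S replicate 1, with 25.1, 2.72 and 6.49 CPM in S discs, against 0.18, 0.154 and 0.233 CPM in WT discs. In 4 of the 15 S replicate 1 was the highest library and the call was lost in some of the 7 fits. Obp44a, an odorant-binding protein, had 178, 0.593 and 0.644 CPM in S discs, against 0.59, 0.333 and 0.14 CPM in WT discs, and its call was lost in 4 of the 7 fits that leave out a library, with an adjusted p of up to 0.646 without S replicate 1. Rbp6 had 43.6, 0.50 and 0.537 CPM in S discs, against 0.154, 0.154 and 0.0698 CPM in WT discs, and its call was lost without WT replicate 1 (adjusted p = 0.0577) or WT replicate 2 (adjusted p = 0.0614). Spn43Ab had 34.8, 1.78 and 3.03 CPM in S discs, against 0.513, 0.205 and 0.163 CPM in WT discs, and lost its call in 4 of the 7 fits that leave out a library, with an adjusted p of up to 0.173 without S replicate 1. CG4716 had 57, 2.15 and 2.93 CPM in S discs, against 0.257, 0.103 and 0.0465 CPM in WT discs, and lost its call in 6 of the 7 fits that leave out a library, with an adjusted p of up to 0.157 without S replicate 1.

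The genes with the lowest log2 changes were at low levels in every S library. ImpE2, an ecdysone-inducible gene of disc morphogenesis and one of the abundant transcripts of WT discs, had 0.888, 1.37 and 1.74 CPM in S discs, against 2786, 2936 and 2778 CPM in WT discs. All 3 S libraries were low and all 3 WT libraries high (log2 change −11.05 ± 0.63, adjusted p = 4.28e-06). Spn100A, a serine protease inhibitor, had 0.183, 0.187 and 0.0268 CPM in S discs, against 113, 141 and 111 CPM in WT discs. For Spn100A the log2 change was −9.83 ± 0.99 (adjusted p = 9.57e-05). Spn43Aa, another one, had 0.992, 1.47 and 0.751 CPM in S discs, against 233, 173 and 199.7 CPM in WT discs. For Spn43Aa the log2 change was −7.56 ± 0.56 (adjusted p = 1.54e-05). St2, a sulfotransferase, had 0, 0.0937 and 0 CPM in S discs, against 40.7, 43 and 36.8 CPM in WT discs. mthl8, a receptor of the Methuselah family, had 0, 0 and 0.0537 CPM in S discs, against 28.5, 30.5 and 21.1 CPM in WT discs, and CG6280 had 0.0783, 0.0937 and 0 CPM in S discs, against 14.1, 14.8 and 8.8 CPM in WT discs. Their S libraries hold 3 counts or fewer each, so that fitted changes are not given, and their adjusted p-values were 1.94e-05, 1.14e-06 and 0.000126. CG4382 had 0.47, 2.15 and 0.134 CPM in S discs, against 109.5, 103 and 107 CPM in WT discs. For CG4382 the log2 change was −6.89 ± 0.86 (adjusted p = 0.000333). Cpr78E, a cuticle protein gene, had 0.104, 0.0625 and 0 CPM in S discs, against 8.03, 19.5 and 10.3 CPM in WT discs (adjusted p = 0.0115), and CG13053, CG3097 and CG13023 had fitted log2 changes of −7.17, −6.34 and −6.62. In S discs CG13053 had 0.209, 0.406 and 0.0537 CPM, CG3097 0.235, 0.281 and 0.590 CPM, and CG13023 0.104, 0.0625 and 0.188 CPM. These levels are near the floor, so the sizes of the 3 fitted changes are uncertain. bxd, a transcript of the Ubx locus, had 0, 0.0937 and 0.376 CPM in S discs, against 15, 34.1 and 17.2 CPM in WT discs (adjusted p = 0.000572).

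By the gain in mean CPM, which is not corrected for transcript length, the largest changes were in the mitochondrial large ribosomal RNA and in structural and metabolic genes. mt:lrRNA had 21459, 18102 and 27674 CPM in S discs, against 12798, 9397 and 12670.3 CPM in WT discs. It passed the test (log2 change 0.95 ± 0.30, adjusted p = 0.0463) but lost its call in 6 of the 7 fits that leave out a library, with an adjusted p of up to 0.161 without WT replicate 2. mt:CoI, a subunit of cytochrome oxidase from the same genome, was higher (log2 change 0.77 ± 0.17, adjusted p = 0.0103). cher, which encodes the actin crosslinker filamin, had 1850.4, 1874 and 1596 CPM in S discs, against 361, 481 and 371 CPM in WT discs. S libraries were close to each other and 4.39-fold above WT in the mean of CPM (log2 change 2.13 ± 0.39, adjusted p = 0.00358). FASN1, fatty acid synthase, had 1787, 1395 and 729.9 CPM in S discs, against 192, 170.0 and 137 CPM in WT discs, with S replicate 3 the lowest of the S libraries and still above WT. For FASN1 the log2 change was 2.97 ± 0.44 (adjusted p = 0.00099). ImpL2, a secreted protein that binds insulin-like peptides and restrains their signal, had 895, 686 and 819.7 CPM in S discs, against 179, 133 and 114 CPM in WT discs. For ImpL2 the log2 change was 2.50 ± 0.28 (adjusted p = 0.000205). CG46460, on the same strand, shares 61.9% of the exon bases of ImpL2, and reads of the 2 genes cannot be told apart there. Chd64, an actin-binding protein of the calponin family, had 941, 954 and 1627 CPM in S discs, against 349, 386 and 297 CPM in WT discs. For Chd64 the log2 change was 1.77 ± 0.22 (adjusted p = 0.000317). Smaller fold changes of abundant genes were those of nw (0.62, adjusted p = 0.00254) and 14-3-3zeta (0.67, adjusted p = 0.00987), and those of Hsc70-4 (0.49), RpS3A (0.72) and Act5C (0.47), whose calls were lost: Hsc70-4 without S replicate 2 (adjusted p = 0.0642) or WT replicate 1 (adjusted p = 0.0578), RpS3A without S replicate 2 (adjusted p = 0.0562) or S replicate 3 (adjusted p = 0.054), and Act5C in 5 of the 7 fits that leave out a library, with an adjusted p of up to 0.188 without S replicate 3. CG10527 rose as well (log2 change 2.90 ± 0.31, adjusted p = 0.000128), but 61.6% of its exon bases overlap a gene on the other strand, and no source used here says how the counting treated strand.

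The largest losses in mean CPM, after ImpE2, were in small heat shock proteins, secretory chaperones and enzymes. Hsp27 had 250.5, 203 and 233 CPM in S discs, against 1498, 1486 and 1505 CPM in WT discs. WT libraries were close to each other and the S libraries lay far below (log2 change −2.71 ± 0.25, adjusted p = 6.91e-05). Hsp23, another small heat shock protein, had 320.2, 267 and 314 CPM in S discs, against 1898, 1749.5 and 1338 CPM in WT discs. For Hsp23 the log2 change was −2.47 ± 0.30 (adjusted p = 0.000271). Ance, a peptidase related to angiotensin converting enzyme, had 66.4, 31.6 and 28.9 CPM in S discs, against 799, 679 and 662 CPM in WT discs. For Ance the log2 change was −4.07 ± 0.49 (adjusted p = 0.000264). Argk, arginine kinase, had 146, 132 and 60.3 CPM in S discs, against 892, 787 and 775 CPM in WT discs, lowest in S replicate 3. For Argk the log2 change was −2.86 ± 0.42 (adjusted p = 0.000927). CG2852 (−1.61, adjusted p = 0.00182), Pdi, the protein disulfide isomerase of the endoplasmic reticulum (−1.01, adjusted p = 0.000685, with 21.5% of its exon bases shared with a gene on the other strand), and bnb (−1.08, adjusted p = 0.0143) fell too. Calls of 4 further genes were lost in some fits: Cht3, a chitinase (−1.93), lost its call without WT replicate 2 (adjusted p = 0.0582); Inx2, a gap junction protein (−0.85), lost it without WT replicate 2 (adjusted p = 0.0542); br, the ecdysone-induced factor Broad (−1.67), lost it in 5 of the 7 fits that leave out a library, with an adjusted p of up to 0.0904 without WT replicate 2; and Cirl, a latrophilin receptor (−0.995), lost it in 6 of the 7 fits that leave out a library, with an adjusted p of up to 0.13 without WT replicate 2.

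**Figure D3:**
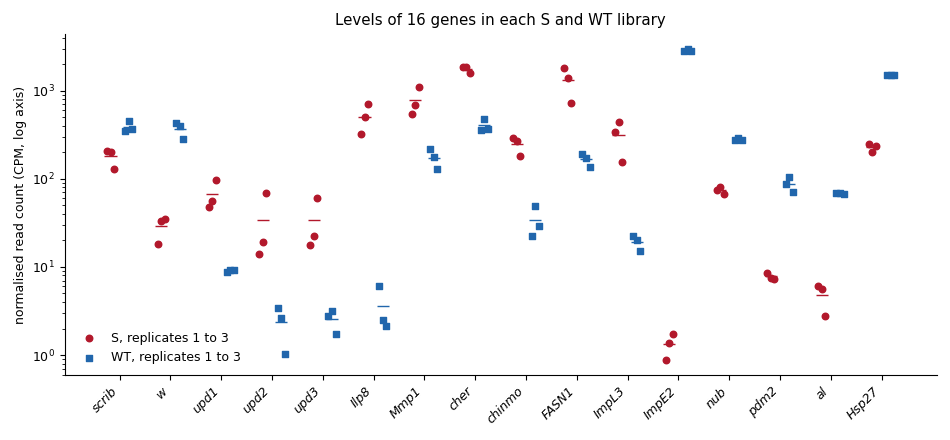
Normalised read count (CPM, log axis) of 16 genes in each library, with S replicates 1 to 3 as red circles left of WT replicates 1 to 3 as blue squares, and lines for the group means. No gene shows an overlap between the groups, and ImpE2 is at 0.888 to 1.74 CPM in S libraries, against 2778 to 2936 CPM in WT libraries.

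Ligands and receptors of the damage response came next. Ilp8 had 319, 501 and 697 CPM in S discs, against 6.06, 2.49 and 2.16 CPM in WT discs. Every S library was far above every WT library (log2 change 7.15 ± 0.64, adjusted p = 4.8e-05). The 3 Unpaired cytokines were all higher: upd1 had 47.7, 56.1 and 97.3 CPM in S discs, against 8.72, 9.2 and 9.29 CPM in WT discs, upd2 had 13.9, 19.1 and 69.5 CPM in S discs, against 3.39, 2.64 and 1.02 CPM in WT discs, and upd3 had 17.9, 22.6 and 61.1 CPM in S discs, against 2.8, 3.18 and 1.75 CPM in WT discs. In each of them S replicate 3 was the highest, and the log2 changes were 2.89, 3.86 and 3.72 (adjusted p = 7.62e-05, 0.00277 and 0.000493). The PDGF- and VEGF-related ligands Pvf1 (log2 change 2.66 ± 0.35, adjusted p = 0.000472), Pvf2 (log2 change 1.50 ± 0.27, adjusted p = 0.0033) and Pvf3 (log2 change 1.67 ± 0.32, adjusted p = 0.00471) were all higher, and their receptor Pvr did not pass the test (log2 change 0.46, adjusted p = 0.165). egr, the TNF ligand that signals to JNK, did not pass either (log2 change −0.32 ± 0.44, adjusted p = 0.618). Its receptors moved apart: grnd was higher (log2 change 0.69 ± 0.13, adjusted p = 0.0034) and wgn lower, with 23.6, 22.4 and 22.1 CPM in S discs, against 70.02, 75.5 and 58.2 CPM in WT discs. For wgn the log2 change was −1.58 ± 0.18 (adjusted p = 0.000205).

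Of the 30 tested members of the list of the JNK cascade and its targets, 9 were higher and 1 lower, with a median log2 change of 0.31 against 0.04 over all tested genes. The share of higher members was 30.0%, against 12.5% of all genes. Correcting for length gave a median of 0.48, and leaving out S replicate 3 gave 0.12. The lower member was wgn, given above. Mmp1, a matrix metalloproteinase induced by JNK, had 536, 689 and 1094 CPM in S discs, against 216, 175 and 128 CPM in WT discs. For Mmp1 the log2 change was 2.16 ± 0.34 (adjusted p = 0.00135). Ets21C, a transcription factor of the same response, had 68.6, 76.1 and 182 CPM in S discs, against 19, 12.7 and 7.75 CPM in WT discs. For Ets21C the log2 change was 3.05 ± 0.44 (adjusted p = 0.000842). scaf, a protease-like JNK target, had 497, 562 and 701 CPM in S discs, against 172, 137 and 110.4 CPM in WT discs. For scaf the log2 change was 2.07 ± 0.32 (adjusted p = 0.00131). No S library overlapped a WT library for these 3, and 28.3% of the exon bases of Ets21C, like 26.8% of those of Traf4, are shared with a gene on the other strand. Traf4, an adaptor between TNF receptors and the kinases, was higher (log2 change 1.00 ± 0.18, adjusted p = 0.00329), and Atf3, a bZIP factor, was higher (1.18) but lost its call in 5 of the 7 fits that leave out a library, with an adjusted p of up to 0.112 without WT replicate 1. The kinases and core factors of the cascade did not pass the test: bsk, the JNK itself, had a log2 change of 0.16 (adjusted p = 0.267), hep −0.48 (0.343), Jra 0.02 (0.96) and kay 0.18 (0.717). The feedback phosphatase gene puc had 93, 101 and 127 CPM in S discs, against 71.5, 77 and 44.3 CPM in WT discs and did not pass either (log2 change 0.74 ± 0.25, adjusted p = 0.0581), nor did rpr (0.43, adjusted p = 0.214) and hid (−0.09, adjusted p = 0.831), the cell death genes on the list.

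The JAK/STAT list had 19 tested members, of which 8 were higher and 0 lower (42.1% higher). Their median log2 change was 0.66, 0.56 with the length correction and 0.09 without S replicate 1. Besides the ligands, feedback regulators and targets were higher. Socs36E, a suppressor of the pathway that the pathway itself induces, had 202, 199 and 291 CPM in S discs, against 118, 110.2 and 84.9 CPM in WT discs. For Socs36E the log2 change was 1.14 ± 0.26 (adjusted p = 0.0116). vir-1, a gene known from antiviral JAK/STAT responses, had 271, 372 and 672 CPM in S discs, against 41.1, 39.2 and 34.8 CPM in WT discs, with S replicate 3 the highest. For vir-1 the log2 change was 3.52 ± 0.34 (adjusted p = 7.62e-05). chinmo, a zinc finger gene that JAK/STAT can activate and that marks early larval stages, had 287, 267 and 183 CPM in S discs, against 22.2, 49.2 and 29.4 CPM in WT discs. For chinmo the log2 change was 2.87 ± 0.56 (adjusted p = 0.00482). Ptp61F, a phosphatase that dampens the pathway, was higher (log2 change 0.67 ± 0.13, adjusted p = 0.00464), as was Socs44A (0.66), which lost its call without WT replicate 2 (adjusted p = 0.0549). The receptor dome (0.08, adjusted p = 0.849), the kinase hop (−0.52, 0.25) and Stat92E (−0.21, 0.541) did not pass. Left-out libraries added lower members to this list: 2 with S replicate 3 left out and 3 with NS replicate 3 left out, against 0.

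Other secreted ligands included higher and lower members. The list of 32 had 8 higher and 3 lower members. Its share of higher members was above the 12.5% of all genes, and its share of lower members was near the 10.6% of all genes. The count of higher ones was 5 with WT replicate 1 or WT replicate 2 left out, and that of lower ones 8 with NS replicate 3 left out. The Spätzle family, ligands of Toll receptors, went both ways. spz6 had 1.78, 2.03 and 1.45 CPM in S discs, against 30.0, 30.8 and 26 CPM in WT discs, low in every S library. For spz6 the log2 change was −4.05 ± 0.25 (adjusted p = 6.37e-06). spz4 was lower as well (log2 change −3.77 ± 0.71, adjusted p = 0.00394), whereas spz5 was higher (log2 change 1.83 ± 0.42, adjusted p = 0.0105) with its call lost without WT replicate 2 (adjusted p = 0.0539). The EGF ligand spi (0.69) was higher and lost its call without WT replicate 1 (adjusted p = 0.0742) or WT replicate 2 (adjusted p = 0.0633), the FGF ligand ths (1.56) likewise in 4 of the 7 fits that leave out a library, with an adjusted p of up to 0.064 without WT replicate 1, and Ilp6 (2.37) without WT replicate 1 (adjusted p = 0.0519). dpp (0.43, adjusted p = 0.157) and wg (−0.24, 0.477) did not pass, and hh is given with its pathway.

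**Figure D4:**
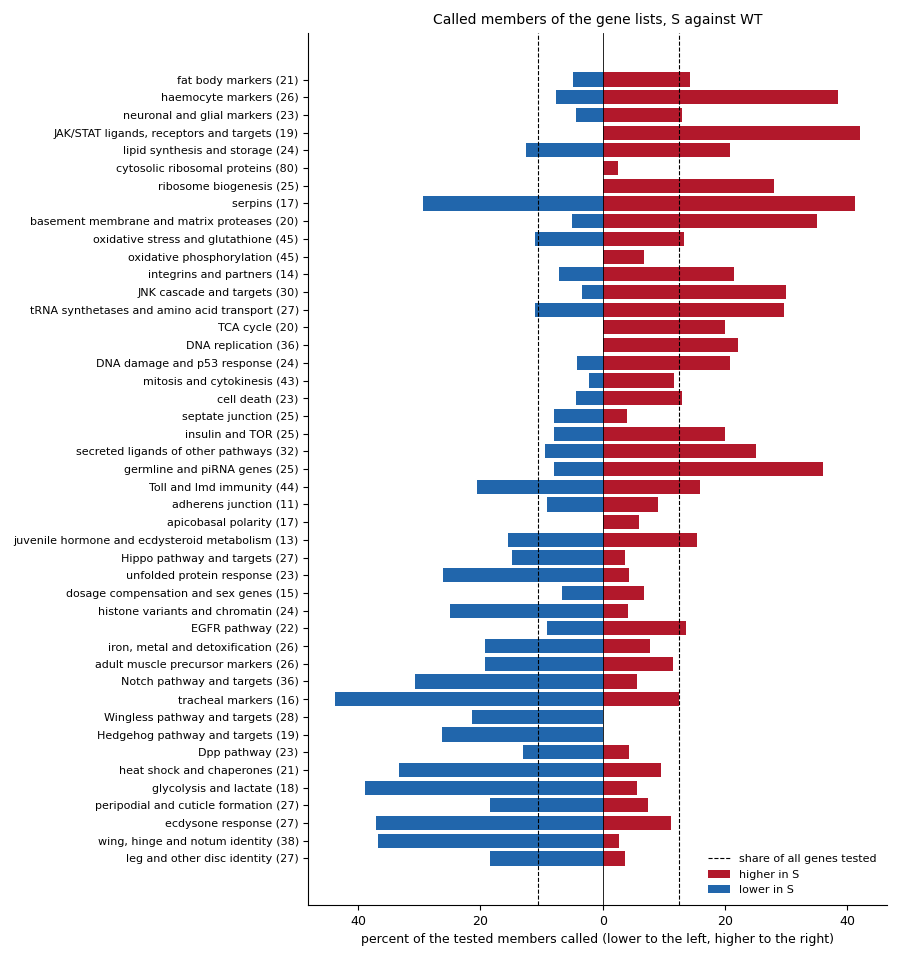
Percent of the tested members of gene lists called lower (blue, to the left) or higher (red, to the right) in S against WT, with the number of tested members in parentheses, ordered by the median log2 change. Dashed lines mark the shares of all tested genes, 10.6% lower and 12.5% higher; JAK/STAT, serpin and haemocyte lists have the longest red bars, and tracheal, glycolysis, ecdysone and wing identity lists the longest blue bars.

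In the fit over 12 libraries few genes of the cell cortex proteins that work with Scribble passed the test. Of 17 tested polarity genes, scrib among them, 1 was called, 5.9%, against 23.1% of all genes. It was Moe, the linker between membrane and actin, which was higher (log2 change 0.79 ± 0.17, adjusted p = 0.00787). The number called depended on the fit. The partners dlg1 (−0.11, adjusted p = 0.829) and l(2)gl (0.71, 0.177) did not pass, nor did crb (−0.40, 0.523), aPKC (−0.25, 0.576) or baz (0.04, 0.942). l(2)gl was called higher with S and WT libraries fitted alone (adjusted p = 0.00588), without S replicate 3 and NS replicate 3 (adjusted p = 5.7e-05), with the length correction (adjusted p = 0.000523) and without NS replicate 3 (adjusted p = 0.000179). In the adherens junction list Vinc, vinculin, was higher (log2 change 0.78 ± 0.13, adjusted p = 0.00191), while shg, E-cadherin, had a log2 change of −0.10 (adjusted p = 0.863) and arm, beta-catenin, −0.11 (0.621). Without NS replicate 3, 3 polarity genes were higher and 4 lower, scrib among the lower ones. With the length correction 6 were higher and 3 lower. Without S replicate 3 and NS replicate 3, 4 were higher and 4 lower.

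Several genes of the actin cytoskeleton and of adhesion to the matrix were higher. Arp3, a subunit of the actin-nucleating Arp2/3 complex, was higher (log2 change 0.65 ± 0.12, adjusted p = 0.00416), and so was dia, a formin (1.08), which lost its call without WT replicate 1 (adjusted p = 0.064). The myosin light chain gene sqh was higher (0.77) and lost its call in 5 of the 7 fits that leave out a library, with an adjusted p of up to 0.136 without S replicate 3, and Mlc2, a muscle myosin light chain, was higher (log2 change 2.72 ± 0.60, adjusted p = 0.00935). The integrin partners Ilk (log2 change 0.86 ± 0.16, adjusted p = 0.00373), parvin (log2 change 0.68 ± 0.15, adjusted p = 0.00816) and stck (log2 change 0.61 ± 0.14, adjusted p = 0.00944), which form 1 complex, were all higher. The integrin subunits mys (0.71, adjusted p = 0.122), mew (−0.15, 0.799) and if (0.19, 0.73) did not pass, and ItgaPS5 was lower (log2 change −1.16 ± 0.25, adjusted p = 0.00843). mys was called higher with S and WT libraries fitted alone (adjusted p = 0.00661), without S replicate 3 and NS replicate 3 (adjusted p = 0.00036), with the length correction (adjusted p = 0.00132) and without NS replicate 3 (adjusted p = 0.000292). Without NS replicate 3, 7 of the 14 integrin genes were higher, against 3 with it.

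Matrix genes followed. Of 20 tested members 7 were higher and 1 lower (35.0% and 5.0%, against 12.5% and 10.6% of all genes). Their median log2 change was 0.38, and 0.57 with the length correction. Timp, the inhibitor of matrix metalloproteinases, had 21.7, 22.7 and 39.1 CPM in S discs, against 12.3, 12.9 and 9.12 CPM in WT discs. For Timp the log2 change was 1.28 ± 0.24 (adjusted p = 0.00397). Tig, a secreted adhesion protein, had 207, 166 and 216 CPM in S discs, against 78.3, 101 and 49.9 CPM in WT discs. For Tig the log2 change was 1.37 ± 0.30 (adjusted p = 0.00931). Ndg, nidogen, was higher from a low level (log2 change 3.13 ± 0.54, adjusted p = 0.00248), and Mp, Multiplexin, was lower (log2 change −2.15 ± 0.42, adjusted p = 0.00475). The collagen gene Cg25C was higher (0.66) and lost its call in 5 of the 7 fits that leave out a library, with an adjusted p of up to 0.0917 without WT replicate 1, and Pxn, peroxidasin, which haemocytes make, was higher (2.02) and lost it without WT replicate 1 (adjusted p = 0.0531) or WT replicate 2 (adjusted p = 0.0617). The laminin genes LanA (−0.31, adjusted p = 0.581), LanB1 (−0.11, 0.76) and LanB2 (−0.59, 0.149) and Mmp2 (−0.27, 0.392) did not pass. Haemocyte markers were higher in S discs over the same libraries, and their part in these values was not tested.

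Many genes that pattern the wing field were lower. Of 38 tested genes of wing, hinge and notum identity 1 was higher and 14 lower, 36.8% lower, with a median log2 change of −0.84 (−0.74 with the length correction). Called lower were 9 with S replicate 2 or WT replicate 2 left out. nub, a POU factor of the wing pouch, had 75.5, 80.1 and 67.7 CPM in S discs, against 272, 293 and 275 CPM in WT discs. For nub the log2 change was −1.91 ± 0.24 (adjusted p = 0.000325). pdm2, its neighbour, had 8.56, 7.46 and 7.38 CPM in S discs, against 86.3, 104 and 71.3 CPM in WT discs. For pdm2 the log2 change was −3.48 ± 0.22 (adjusted p = 7.39e-06). al, a homeobox gene of the notum and leg tip, had 6.11, 5.68 and 2.79 CPM in S discs, against 68.6, 69.8 and 66.9 CPM in WT discs. For al the log2 change was −3.82 ± 0.27 (adjusted p = 1.22e-05). vg, the wing selector gene, had 82.5, 76.4 and 80.0 CPM in S discs, against 193, 227 and 182 CPM in WT discs. For vg the log2 change was −1.33 ± 0.25 (adjusted p = 0.00416). No S library overlapped a WT library in any of the 4, and S replicate 3 was the lowest for al. bs, a vein and intervein factor (log2 change −1.37 ± 0.16, adjusted p = 0.000209), dsx, the sex determination factor (log2 change −2.35 ± 0.35, adjusted p = 0.00104), ush, a partner of GATA factors (log2 change −1.48 ± 0.33, adjusted p = 0.0103), and bi, a Dpp target (log2 change −1.52 ± 0.36, adjusted p = 0.0139), fell too. The selectors sd (−0.24, adjusted p = 0.661), ap (−0.02, 0.976) and rn (−0.31, 0.532) did not pass and stood at 111 to 452 CPM in S discs. Of 27 tested genes of leg and other disc identity 1 was higher and 5 lower (3.7% and 18.5%, against 12.5% and 10.6% of all genes), with 1 to 2 higher and 4 to 10 lower over the 7 fits. Among them dac had 3.66, 1.97 and 0.59 CPM in S discs, against 36.8, 35.5 and 30.6 CPM in WT discs. For dac the log2 change was −4.05 ± 0.55 (adjusted p = 0.00057). bab2 had 7.34, 7.34 and 10.7 CPM in S discs, against 59.8, 63.9 and 50.6 CPM in WT discs. For bab2 the log2 change was −2.78 ± 0.38 (adjusted p = 0.000598). Dll had 31.1, 28.4 and 12.9 CPM in S discs, against 90.1, 96.4 and 109.8 CPM in WT discs. For Dll the log2 change was −2.03 ± 0.33 (adjusted p = 0.00192).

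Of the pathways that set up these fields, the Hedgehog and Wingless lists had 26.3% and 21.4% lower members. In the Dpp list 3 of 23 were lower, a share near the 10.6% of all genes. In the Hedgehog list, with 19 members, 0 were higher and 5 lower. The lower count was 12 with NS replicate 3 left out. hh, the ligand, had 28.9, 25.5 and 32.6 CPM in S discs, against 50.1, 60.2 and 73.9 CPM in WT discs. For hh the log2 change was −1.08 ± 0.19 (adjusted p = 0.00274). The posterior selectors inv (log2 change −1.51 ± 0.17, adjusted p = 0.000167) and en (log2 change −1.04 ± 0.24, adjusted p = 0.0117), which switch hh on, fell with it, and kn, a target in the central wing, had 2.38, 1.06 and 0.0268 CPM in S discs, against 32.1, 35.4 and 30.6 CPM in WT discs. For kn the log2 change was −4.81 ± 0.99 (adjusted p = 0.0063). ihog, a co-receptor, was lower (log2 change −1.09 ± 0.23, adjusted p = 0.00662), while ptc (−0.54, adjusted p = 0.295), smo (−0.39, 0.249) and ci (0.22, 0.689) did not pass. In the Wingless list of 28, 0 were higher and 6 lower, and the lower count was 13 with NS replicate 3 left out. por, the acyltransferase that lipidates Wnt ligands, had 29, 29.7 and 28.3 CPM in S discs, against 48.2, 52.1 and 50.7 CPM in WT discs. For por the log2 change was −0.80 ± 0.10 (adjusted p = 0.000381). nmo, a kinase that acts in feedback on the pathway (log2 change −1.51 ± 0.25, adjusted p = 0.00187), and sc, a proneural gene of the wing margin (log2 change −1.49 ± 0.23, adjusted p = 0.00118), were lower. In the Dpp list of 23, 1 was higher and 3 lower, and the lower count was 10 with NS replicate 3 left out; wit, a type II receptor, had 25.8, 18.7 and 15.6 CPM in S discs, against 103, 115 and 92.5 CPM in WT discs. For wit the log2 change was −2.37 ± 0.29 (adjusted p = 0.000279). sog, an antagonist of the ligand, was higher (1.76) but lost its call in 5 of the 7 fits that leave out a library, with an adjusted p of up to 0.0879 without WT replicate 1. The medians of the Hedgehog, Wingless and Dpp lists, −0.36, −0.36 and −0.45, were −0.22, −0.25 and −0.25 with the length correction, and that of the Dpp list was −0.22 without S replicate 3.

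Targets of Notch were read with the doubt about the WT genotypes in view. Of 36 members 2 were higher and 11 lower (30.6% lower), and the lower count was 7 with S replicate 1, WT replicate 1 or WT replicate 2 left out. E(spl)mdelta-HLH, a repressor gene that Notch turns on, had 2.35, 2.37 and 3.19 CPM in S discs, against 32.5, 38.2 and 16 CPM in WT discs. For E(spl)mdelta-HLH the log2 change was −3.45 ± 0.30 (adjusted p = 3.86e-05). E(spl)m2-BFM had 10.9, 12.3 and 18.5 CPM in S discs, against 89.4, 109 and 27.3 CPM in WT discs. For E(spl)m2-BFM the log2 change was −2.44 ± 0.43 (adjusted p = 0.00276). E(spl)malpha-BFM had 16.3, 18 and 23 CPM in S discs, against 146, 158 and 29.1 CPM in WT discs. For E(spl)malpha-BFM the log2 change was −2.54 ± 0.50 (adjusted p = 0.00496). In each of them WT replicate 3 was well under WT replicates 1 and 2, though still above S. E(spl)m6-BFM was lower too (log2 change −2.77 ± 0.53, adjusted p = 0.00452), and E(spl)m7-HLH had 7.05, 6.9 and 14.4 CPM in S discs, against 84.8, 89.7 and 12 CPM in WT discs, where S replicate 3 exceeded WT replicate 3. For E(spl)m7-HLH the log2 change was −2.72 ± 0.61 (adjusted p = 0.00978). Of the WT libraries whose genotype lists UAS Nicd, replicate 2 was the highest and replicate 3 the lowest of the group in all 5 of these genes, and replicate 1, whose genotype does not list it, lay between them. E(spl)m3-HLH (−0.88, adjusted p = 0.208) and E(spl)m8-HLH (−0.69, 0.181) did not pass, nor did the ligands Dl (−0.91, 0.132) and Ser (−0.17, 0.749). Of other E(spl) genes, E(spl)m4-BFM was higher in the fit over 12 libraries (log2 change 0.70 ± 0.22, adjusted p = 0.0449), with no overlap of S and WT libraries. E(spl)mbeta-HLH was lower there (−1.58, 0.0437), and E(spl)mgamma-HLH (−0.20, 0.783) and E(spl)m5-HLH (−0.14, 0.878) did not pass. The calls of these further E(spl) genes were not followed over the other fits, and they are outside the counts of named genes. dpn, a neural stem cell factor and Notch target, was lower (−1.44) with its call lost in 3 of the 7 fits that leave out a library, with an adjusted p of up to 0.0647 without WT replicate 2, and shares 59.3% of its exon bases with a gene on the other strand. Brd, of the Bearded family that restrains Notch signalling, was higher (log2 change 2.15 ± 0.43, adjusted p = 0.00531).

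The Hippo list, the pathway that limits growth through Yorkie, had 27 tested members, of which 1 was higher and 4 lower (3.7% and 14.8%). The number called higher was 5 with NS replicate 3 left out, and the lower one 10 with NS replicate 3 left out. Its median, −0.17, was −0.11 without WT replicate 2 and changed sign to 0.06 with the length correction. fj, a Golgi kinase that acts on the Fat cadherin, had 406, 392 and 405 CPM in S discs, against 168, 199 and 273 CPM in WT discs. For fj the log2 change was 0.91 ± 0.19 (adjusted p = 0.00741). lft (log2 change −0.98 ± 0.17, adjusted p = 0.00234), Tgi, a corepressor of Scalloped (log2 change −0.87 ± 0.18, adjusted p = 0.00701), and mats, a subunit of the Warts kinase complex (log2 change −0.46 ± 0.10, adjusted p = 0.00821), were lower. Common readouts of Yorkie did not pass in the fit over 12 libraries: ex had a log2 change of 0.55 (adjusted p = 0.463), Diap1 0.02 (0.943), CycE −0.33 (0.361) and kibra 1.31 (0.0541). kibra was called higher with DESeq2 (adjusted p = 0.0167), with S and WT libraries fitted alone (adjusted p = 0.0235), without S replicate 3 and NS replicate 3 (adjusted p = 0.00368), with the length correction (adjusted p = 0.00057), with a replicate block (adjusted p = 0.0304) and without NS replicate 3 (adjusted p = 0.0024). ex was called higher without S replicate 3 and NS replicate 3 (adjusted p = 0.00217) and with the length correction (adjusted p = 0.0349). CycE was called lower with S and WT libraries fitted alone (adjusted p = 0.0442), without S replicate 3 and NS replicate 3 (adjusted p = 0.0366) and without NS replicate 3 (adjusted p = 0.0204). In the EGFR list of 22 members 3 were higher and 2 lower, 13.6% and 9.1%, near the 12.5% and 10.6% of all genes. edl, an inhibitor of ETS factors, was lower (log2 change −1.27 ± 0.25, adjusted p = 0.00477), with an adjusted p of 0.0523 without the 3 libraries richest in Lsp1beta, and the pathway target aos did not pass (−0.11, adjusted p = 0.783). Leaving out NS replicate 3 gave 6 higher and 9 lower members, and leaving out either WT replicate 1 or WT replicate 2 gave 0 and 1.

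Many genes of the response to ecdysone, the moulting hormone, were lower. Of 27 tested members 3 were higher and 10 lower, 37.0% lower, median log2 change −0.77 (−0.53 with the length correction). The count of lower members was 6 with S replicate 2 left out. Hr4, a nuclear receptor of the ecdysone cascade, had 0.104, 0.0937 and 0.242 CPM in S discs, against 90.7, 104 and 80.9 CPM in WT discs (adjusted p = 0.000177). Eip78C, another nuclear receptor, had 0.679, 0.531 and 0.805 CPM in S discs, against 44.7, 59.5 and 49.4 CPM in WT discs. For Eip78C the log2 change was −6.24 ± 0.51 (adjusted p = 2.42e-05). Blimp-1, a repressor that times the fall of ecdysone responses, had 0, 0.0937 and 0.134 CPM in S discs, against 25.8, 54.5 and 71.9 CPM in WT discs (adjusted p = 0.000524). S discs were at under 1 CPM for all 3, and also for Hr46 (0.0261, 0 and 0 CPM in S discs, against 2.36, 1.56 and 2.86 CPM in WT discs, adjusted p = 0.000646), which shares 82.7% of its exon bases with CG12912 on the same strand. ImpE1 had 44.5, 61.6 and 65.6 CPM in S discs, against 333, 421 and 373 CPM in WT discs. For ImpE1 the log2 change was −2.71 ± 0.32 (adjusted p = 0.000258). The hormone receptor EcR did not pass (−0.22, adjusted p = 0.737), nor did Eip75B (−1.23, 0.0552), and Eip74EF was lower (−0.95) with its call lost in 6 of the 7 fits that leave out a library, with an adjusted p of up to 0.122 without WT replicate 2. ftz-f1, which is on before and after pulses of the hormone, was higher (1.33) and lost its call in 4 of the 7 fits that leave out a library, with an adjusted p of up to 0.087 without WT replicate 1, and 29.4% of its exon bases are shared with a gene on the same strand. Cyp18a1, the enzyme that inactivates ecdysone, had 18.1, 13.6 and 20.5 CPM in S discs, against 1.44, 2.02 and 2.63 CPM in WT discs. For Cyp18a1 the log2 change was 3.10 ± 0.43 (adjusted p = 0.000637). Of the genes that mark the order of larval stages, chinmo was higher, as given above, Imp was higher (1.34) and lost its call in 5 of the 7 fits that leave out a library, with an adjusted p of up to 0.114 without WT replicate 1, and br was lower.

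Enzymes of glycolysis that passed the test were lower, with the exception of lactate dehydrogenase. Of 18 members 1 was higher and 7 lower (5.6% and 38.9%, against 12.5% and 10.6% of all genes), and the median log2 change was −0.56. ImpL3, lactate dehydrogenase, had 342, 442 and 155 CPM in S discs, against 22.7, 19.9 and 15.1 CPM in WT discs, the higher member. For ImpL3 the log2 change was 4.02 ± 0.45 (adjusted p = 0.000185). Ald, aldolase, had 160.1, 171 and 130.0 CPM in S discs, against 397, 348 and 365 CPM in WT discs. For Ald the log2 change was −1.27 ± 0.16 (adjusted p = 0.000333). Tpi (log2 change −1.33 ± 0.24, adjusted p = 0.00323), Pgk (log2 change −0.83 ± 0.17, adjusted p = 0.00641) and Gapdh2 (log2 change −0.88 ± 0.20, adjusted p = 0.01), which act in the steps after it, fell as well. Glut1, a glucose transporter, had 19.5, 3.47 and 4.08 CPM in S discs, against 58.4, 63.4 and 58.2 CPM in WT discs, with S replicate 1 above the other S libraries. For Glut1 the log2 change was −2.73 ± 0.57 (adjusted p = 0.00707). Eno (−0.55) lost its call in 5 of the 7 fits that leave out a library, with an adjusted p of up to 0.114 without WT replicate 1, and Pglym78 (−0.63) lost it in 5 of the 7 fits that leave out a library, with an adjusted p of up to 0.115 without WT replicate 1. Hex-A (0.32, adjusted p = 0.483) and PyK (0.13, 0.453), the first and the last enzyme, did not pass.

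Lipid genes included some of the abundant transcripts that rose. Of 24 members 5 were higher and 3 lower (20.8% and 12.5%). Their median log2 change was 0.65, and 0.09 without S replicate 1, and without NS replicate 3, 9 were higher. AcCoAS, which makes acetyl-CoA from acetate, had 273, 221 and 217 CPM in S discs, against 29, 16.8 and 12.8 CPM in WT discs. Every S library was well above every WT library (log2 change 3.60 ± 0.38, adjusted p = 0.000123), next to FASN1 given above. Desat1, a fatty acid desaturase, was higher (log2 change 0.75 ± 0.15, adjusted p = 0.00489), and SREBP, the factor that controls these enzymes, was higher (1.02) with its call lost without WT replicate 1 (adjusted p = 0.0571). pdgy, an acyl-CoA synthetase, had 29.2, 26.4 and 33.2 CPM in S discs, against 113, 121 and 114 CPM in WT discs. For pdgy the log2 change was −1.97 ± 0.18 (adjusted p = 5.24e-05). Mtp, which loads lipoproteins, was lower (log2 change −0.72 ± 0.14, adjusted p = 0.00396). ACC (1.25, adjusted p = 0.0509) did not pass. FASN1 and Mtp are also fat body genes, and the fat body markers of S replicate 1 are given below.

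Heat shock proteins and chaperones of the endoplasmic reticulum had more lower than higher members. In the heat shock list of 21, 2 were higher and 7 lower (33.3% lower). Hsp67Ba, which shares 75.9% of its exon bases with a gene on the other strand, had 7.02, 4.28 and 1.77 CPM in S discs, against 218, 213 and 195 CPM in WT discs. For Hsp67Ba the log2 change was −5.58 ± 0.45 (adjusted p = 2.4e-05). Hsc70-2 had 21.4, 19.3 and 27.9 CPM in S discs, against 55.6, 57 and 66.6 CPM in WT discs. For Hsc70-2 the log2 change was −1.38 ± 0.15 (adjusted p = 0.000129). Hsp70Bb, a gene whose sequences are used in many transgenes, had 8.98, 8.68 and 19.1 CPM in S discs, against 182, 179 and 135 CPM in WT discs. For Hsp70Bb the log2 change was −3.75 ± 0.43 (adjusted p = 0.000206). Near-identical copies of this gene can share its reads. Hsp83 (−0.001, adjusted p = 0.999) and Hsf (−0.30, 0.25) did not pass. Of the 23 genes of the unfolded protein response 1 was higher and 6 lower (26.1% lower), and the lower count was 3 with S replicate 1, S replicate 2, WT replicate 1 or WT replicate 2 left out and 11 with NS replicate 3 left out. Sec61alpha, the pore for secreted proteins (log2 change −0.68 ± 0.12, adjusted p = 0.00342), and sip3, a ubiquitin ligase of the endoplasmic reticulum (log2 change −0.58 ± 0.12, adjusted p = 0.00736), were lower besides Pdi, and Xbp1 did not pass (−0.06, adjusted p = 0.742). Thor, the inhibitor of translation that insulin and stress signals control, had 72.9, 42.7 and 60.3 CPM in S discs, against 23, 8.59 and 9.96 CPM in WT discs. For Thor the log2 change was 2.08 ± 0.40 (adjusted p = 0.00462). chrb, an inhibitor of TOR, was lower (log2 change −1.61 ± 0.26, adjusted p = 0.00189), and REPTOR-BP, a factor of TOR-dependent transcription, was higher (log2 change 0.84 ± 0.17, adjusted p = 0.00538).

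Antioxidant genes moved both ways. Of 45 members 6 were higher and 5 lower, against shares of 13.3% and 11.1% that are near those of all genes. GstT1 (log2 change 1.17 ± 0.21, adjusted p = 0.00292) and Zw, glucose-6-phosphate dehydrogenase (log2 change 0.69 ± 0.12, adjusted p = 0.00268), were higher besides GstD3. GstS1 had 311, 314 and 307 CPM in S discs, against 745, 762 and 618 CPM in WT discs. For GstS1 the log2 change was −1.19 ± 0.12 (adjusted p = 0.000105). Cat, catalase, had 218, 189 and 153 CPM in S discs, against 359, 356 and 339 CPM in WT discs. For Cat the log2 change was −0.91 ± 0.14 (adjusted p = 0.00102). GstO3 was lower too (log2 change −1.02 ± 0.19, adjusted p = 0.00376). GstD1, a common readout of oxidative stress, had 1024, 1205 and 2288 CPM in S discs, against 824, 819 and 779 CPM in WT discs and did not pass (log2 change 0.90 ± 0.33, adjusted p = 0.0723). Leaving out NS replicate 3 gave 14 higher members, and leaving out S replicate 1, S replicate 2 or any single WT library gave 3 lower ones.

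Several genes of DNA repair were higher. Of 24 members 5 were higher and 1 lower (20.8% higher), and these counts stood at 5 or 6 higher and 1 or 2 lower in the 7 fits. mre11 had 114, 123 and 106 CPM in S discs, against 54.9, 54.7 and 59.3 CPM in WT discs. For mre11 the log2 change was 1.02 ± 0.11 (adjusted p = 0.000111). nbs, its partner in the complex that binds broken DNA ends, was higher (log2 change 0.67 ± 0.13, adjusted p = 0.00538). Irbp (log2 change 0.81 ± 0.13, adjusted p = 0.00129) and Ku80 (log2 change 0.78 ± 0.16, adjusted p = 0.00721), the 2 subunits of the Ku complex of end joining, were both higher, as was p53 (log2 change 0.73 ± 0.13, adjusted p = 0.00312), with 38.0% of its exon bases shared with a gene on the other strand. grp, the checkpoint kinase Chk1, had 219, 207 and 233 CPM in S discs, against 457, 439 and 477 CPM in WT discs. For grp the log2 change was −1.06 ± 0.12 (adjusted p = 0.000188). tefu, the kinase ATM (0.06, adjusted p = 0.914), and lok, the kinase Chk2 (0.13, 0.378), did not pass. In the cell death list CG6272, a bZIP gene (log2 change 1.19 ± 0.13, adjusted p = 0.000144), and Buffy, of the Bcl-2 family (log2 change 2.19 ± 0.41, adjusted p = 0.00374), were higher, and the caspase genes Dcp-1 (−0.31, 0.0577), Drice (0.16, 0.259) and Dronc (−0.29, 0.139) did not pass.

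Lists of growth and the cell cycle had different shares of higher members, and the number called depended on the libraries fitted. Higher were 22.2% of replication genes, 7 of 25 genes of ribosome biogenesis and 11.6% of mitotic genes, against 12.5% of all genes. Of 36 replication genes 8 were higher and 0 lower. Called higher were 2 with S replicate 2 or WT replicate 2 left out, 3 with WT replicate 1 left out, 4 with S replicate 1 left out and 13 with NS replicate 3 left out. Leaving out NS replicate 3 also gave 4 lower members. Orc6, of the origin recognition complex, had 17, 14.8 and 14.9 CPM in S discs, against 7.72, 8.95 and 8.49 CPM in WT discs. For Orc6 the log2 change was 0.89 ± 0.14 (adjusted p = 0.00156). RfC3, a clamp loader subunit, was higher (log2 change 0.76 ± 0.17, adjusted p = 0.00939), whereas PCNA (0.20, adjusted p = 0.552), Mcm2 (0.13, 0.629) and CycE did not pass. Of 43 mitotic genes 5 were higher and 1 lower. The higher count was 2 with S replicate 1 or WT replicate 1 left out, 3 with S replicate 2 or WT replicate 2 left out, 9 with S replicate 3 left out and 12 with NS replicate 3 left out. Klp61F, a spindle motor (log2 change 0.66 ± 0.11, adjusted p = 0.00225), and Nuf2, of the kinetochore (log2 change 0.76 ± 0.16, adjusted p = 0.00616), were higher, and stg, the Cdc25 phosphatase, did not pass (0.28, 0.458). Of 25 genes of ribosome biogenesis 7 were higher and 0 lower. The number called higher was 0 with S replicate 2 or WT replicate 1 left out, 1 with S replicate 1 or WT replicate 2 left out, 11 with WT replicate 3 left out and 23 with NS replicate 3 left out. No member of that list was called in all 7 fits; Ns1, nucleostemin (0.57, adjusted p = 0.0201), lost its call in 4 of the 7 fits that leave out a library, with an adjusted p of up to 0.0914 without WT replicate 2.

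Ribosomal protein genes had small log2 changes, all above 0. Their summed level was 216000 to 240700 CPM in S discs, against 145400 to 177700 CPM in WT discs. All 80 tested members had a log2 change above 0, from 0.14 to 0.72 with a median of 0.52, and for 78 of them every S library lay above every WT library, against 27.0% of all genes. In the fit over 12 libraries 2 were higher and 0 lower, 2.5% and under the 12.5% of all genes. The count of higher members was 0 with S replicate 2 or S replicate 3 left out, 1 with S replicate 1, WT replicate 1, WT replicate 2 or WT replicate 3 left out and 76 with NS replicate 3 left out, and 58 with S and WT libraries fitted alone. These transcripts are short, and with the length correction the median was 0.23, with 14 called higher. Genes of oxidative phosphorylation were similar, with a median of 0.33 over 45 members, 0.11 after correcting for length and 0.19 with S replicate 3 left out; 3 were called higher, 6.7%, and 0 lower, and the higher count was 0 with S replicate 2, WT replicate 1 or WT replicate 2 left out, 1 with S replicate 1 or S replicate 3 left out and 20 with NS replicate 3 left out. Cyt-c-p, cytochrome c, had 154, 189 and 294 CPM in S discs, against 96.9, 78.4 and 97.7 CPM in WT discs and was the member with the largest change (log2 change 1.22 ± 0.37, adjusted p = 0.0385), though its call was lost in 5 of the 7 fits that leave out a library, with an adjusted p of up to 0.132 without WT replicate 2. Of 27 tRNA synthetases and amino acid transporters 8 were higher and 3 lower (29.6% and 11.1%, against 12.5% and 10.6% of all genes). The higher count was 1 with S replicate 2, WT replicate 1 or WT replicate 2 left out, 3 with S replicate 1 left out, 4 with S replicate 3 left out and 13 with NS replicate 3 left out. Aats-thr, the threonine synthetase, was higher (log2 change 0.63 ± 0.13, adjusted p = 0.00516), and CG6287, the first enzyme of serine synthesis, had 32.9, 38.5 and 31.5 CPM in S discs, against 173, 164 and 176 CPM in WT discs. For CG6287 the log2 change was −2.32 ± 0.17 (adjusted p = 1.44e-05). The transporters CD98hc (log2 change −0.76 ± 0.10, adjusted p = 0.00053) and slif (log2 change −1.22 ± 0.22, adjusted p = 0.00308) were lower.

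Immune genes of the Toll and Imd pathways, which recognise microbes and act in the blood, moved both ways: of 44 members 7 were higher and 9 lower. These are 15.9% and 20.5%, against 12.5% and 10.6% of all genes. Called higher were 13 with NS replicate 3 left out, and the lower one 4 with WT replicate 2 left out and 5 with S replicate 2 or WT replicate 1 left out. PGRP-SA, a receptor for bacterial cell walls, had 45.4, 51.7 and 125 CPM in S discs, against 2.28, 4.59 and 1.7 CPM in WT discs. For PGRP-SA the log2 change was 4.70 ± 0.51 (adjusted p = 0.000155). psh (log2 change 3.15 ± 0.39, adjusted p = 0.000286), a protease that activates Toll, was higher. Hayan (log2 change −1.25 ± 0.18, adjusted p = 0.000792), MP1 (log2 change −1.09 ± 0.11, adjusted p = 0.000114) and SPE (log2 change −2.71 ± 0.44, adjusted p = 0.00171), proteases of the same cascades, were lower. The thioester proteins Tep2 (log2 change 1.48 ± 0.22, adjusted p = 0.00111) and Tep3 (log2 change 1.18 ± 0.24, adjusted p = 0.00647) were higher. The counts of Hayan, MP1 and Tep3 may hold reads of genes on the other strand, which share 36.2%, 100% and 25.6% of their exon bases. The antimicrobial peptide gene Dro had 2.64, 1.94 and 17.1 CPM in S discs, against 0.18, 0.179 and 0.163 CPM in WT discs, with S replicate 3 far above the others. For Dro the log2 change was 5.35 ± 0.99 (adjusted p = 0.00367). Drs (4.55, adjusted p = 0.0648) and Dpt (1.28, 0.35) did not pass. Of 17 serpins 7 were higher and 5 lower (41.2% and 29.4%, against 12.5% and 10.6% of all genes). The higher count was 4 with S replicate 1, WT replicate 2 or WT replicate 3 left out, and the lower one 2 with S replicate 1, S replicate 2, WT replicate 1 or WT replicate 2 left out. nec, which restrains Toll activation, had 15.6, 8.99 and 20.1 CPM in S discs, against 1.67, 2.0 and 1.51 CPM in WT discs. For nec the log2 change was 3.11 ± 0.33 (adjusted p = 0.000142). Spn47C had 32.8, 43.2 and 70.4 CPM in S discs, against 6.24, 8.46 and 8.05 CPM in WT discs. For Spn47C the log2 change was 2.69 ± 0.26 (adjusted p = 7.53e-05). Spn42Dc (log2 change 2.05 ± 0.26, adjusted p = 0.000383) and Spn55B (log2 change 1.38 ± 0.25, adjusted p = 0.0034) were higher too, set against the losses of Spn43Aa and Spn100A.

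Several germline and piRNA genes, which wing discs use little, were higher. Of 25 tested members 9 were higher and 2 lower, 36.0% higher. The number called higher was 5 with S replicate 1, S replicate 2, WT replicate 1 or WT replicate 2 left out. vas, an RNA helicase of germ cells, had 3.63, 4.06 and 2.52 CPM in S discs, against 0.77, 0.59 and 0.605 CPM in WT discs. For vas the log2 change was 2.37 ± 0.35 (adjusted p = 0.000894). solo, on the same strand, shares 24.6% of the exon bases of vas. nos, a translational repressor, had 1.57, 1.16 and 1.23 CPM in S discs, against 0.205, 0.128 and 0.116 CPM in WT discs. For nos the log2 change was 3.11 ± 0.45 (adjusted p = 0.000822). vret had 39.5, 37 and 34.8 CPM in S discs, against 20.2, 17.6 and 20.6 CPM in WT discs. For vret the log2 change was 0.93 ± 0.11 (adjusted p = 0.000295). del (log2 change 1.23 ± 0.24, adjusted p = 0.00501) and zuc, a nuclease of piRNA processing (log2 change 0.93 ± 0.21, adjusted p = 0.0103), were higher, and AGO3 (log2 change −0.98 ± 0.14, adjusted p = 0.00085) and qin (log2 change −1.41 ± 0.31, adjusted p = 0.00942), which act with it, were lower. piwi was higher (1.60) and lost its call in 5 of the 7 fits that leave out a library, with an adjusted p of up to 0.105 without WT replicate 2, and aub (−0.97, adjusted p = 0.409) did not pass. Of 24 chromatin genes 1 was higher and 6 lower. The count of lower members was 1 with S replicate 2, WT replicate 1 or WT replicate 2 left out, 2 with S replicate 3 left out and 10 with NS replicate 3 left out. Of the lower ones His2Av lies in the stretch beside scrib, and the Polycomb genes Psc (−1.25), ph-d (−1.02) and Su(z)2 (−1.51) lost their calls: Psc in 4 of the 7 fits that leave out a library, with an adjusted p of up to 0.0934 without WT replicate 2, ph-d in 4 of the 7 fits that leave out a library, with an adjusted p of up to 0.107 without WT replicate 2, and Su(z)2 in 6 of the 7 fits that leave out a library, with an adjusted p of up to 0.11 without WT replicate 2.

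The labelled tissue and the other cell types that a dissected disc can bring along were read from their defining markers. The 6 markers of wing disc epithelium (nub, vg, sd, ap, ct and rn) were all detected in every library and summed to 1009.9 to 1213 CPM in S discs, against 1460.2 to 1673 CPM in WT discs. The 6 haemocyte markers (Hml, Pxn, NimC1, eater, He and srp) summed to 76.6 to 349 CPM in S discs, against 32.2 to 61.8 CPM in WT discs, with no overlap, and 3 of the 6 were called higher. Hml, hemolectin, had 39.1, 109.8 and 166 CPM in S discs, against 16.3, 12.9 and 22.8 CPM in WT discs, lowest in S replicate 1 and highest in S replicate 3 within S, as was the sum. For Hml the log2 change was 2.60 ± 0.48 (adjusted p = 0.00372). In the longer haemocyte list 10 of 26 were higher and 2 lower (38.5% and 7.7%, against 12.5% and 10.6% of all genes). The higher count was 3 with WT replicate 2 left out and 5 with WT replicate 1 left out. NimB1, a Nimrod protein of blood cells, was higher (log2 change 4.06 ± 0.65, adjusted p = 0.00168). The 6 fat body markers (Lsp1alpha, Lsp1beta, Lsp1gamma, Lsp2, Fbp1 and Fbp2) summed to 118 to 11291 CPM in S discs, against 141 to 736 CPM in WT discs, and S replicate 1 was the one library above the WT range; 0 of the 6 were called. Lsp1beta, a larval serum protein, had 4343, 37.5 and 175 CPM in S discs, against 241, 31.9 and 142 CPM in WT discs. For Lsp1beta the log2 change was 3.46 ± 2.28 (adjusted p = 0.285).

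Of 6 markers of neurons and glia, elav, nSyb, brp, Syt1, repo and moody, the sum was 92.8 to 213 CPM in S discs, against 47.9 to 56.3 CPM in WT discs. brp, a protein of the presynaptic active zone, had 73.6, 0.0937 and 0.107 CPM in S discs, against 0.513, 0.384 and 0.256 CPM in WT discs, present in S replicate 1 alone among the 6 libraries at over 1 CPM. moody, a receptor of glia, had 60.0, 74.3 and 111 CPM in S discs, against 16.8, 17.9 and 12.9 CPM in WT discs, higher in all 3 S libraries. For moody the log2 change was 2.37 ± 0.31 (adjusted p = 0.000455). elav, the neuronal RNA-binding protein, had 44.4, 17.5 and 14.8 CPM in S discs, against 27.7, 35.4 and 36.9 CPM in WT discs. For elav the log2 change was −0.38 ± 0.47 (adjusted p = 0.565). Without moody the other 5 markers summed to 153, 18.4 and 17.6 CPM in S discs, against 31.1, 38.5 and 38.9 CPM in WT discs, so that S replicates 2 and 3 lay below WT and S replicate 1 above. Tracheal markers summed to 2142 to 2537 CPM in S discs, against 1894 to 2441 CPM in WT discs with an overlap, and the FGF receptor gene btl, which defines tracheal cells, had 2.82, 2.62 and 3.44 CPM in S discs, against 13.1, 16.1 and 11.6 CPM in WT discs. For btl the log2 change was −2.20 ± 0.31 (adjusted p = 0.000752). The markers moved both ways: trh (−0.94, adjusted p = 0.0432) and vvl (−1.21, 0.0438) were lower, each with its call lost in some fits: trh in 6 of the 7 fits that leave out a library, with an adjusted p of up to 0.139 without WT replicate 2, and vvl in 6 of the 7 fits that leave out a library, with an adjusted p of up to 0.121 without WT replicate 3. serp, a chitin deacetylase, had 295, 317 and 457 CPM in S discs, against 223, 246 and 204 CPM in WT discs. For serp the log2 change was 0.67 ± 0.19 (adjusted p = 0.0302). Its call was lost in 4 of the 7 fits that leave out a library, with an adjusted p of up to 0.0947 without WT replicate 1. verm, its relative, had 822, 838 and 1039 CPM in S discs, against 604, 669 and 523 CPM in WT discs and did not pass (log2 change 0.59 ± 0.25, adjusted p = 0.115), nor did uif (0.04, 0.963). In the longer tracheal list of 16, 2 were higher and 7 lower (12.5% and 43.8%, against 12.5% and 10.6% of all genes). Called lower were 3 with S replicate 2 or WT replicate 1 left out and 4 with S replicate 1, S replicate 3, WT replicate 2 or WT replicate 3 left out. Markers of adult muscle precursors, the myoblasts under the notum, summed to 155 to 193 CPM in S discs, against 183 to 216 CPM in WT discs with 0 of 5 called. Germline markers (vas, nos and bam) summed to 6.43 to 11.8 CPM in S discs, against 1.77 to 8.39 CPM in WT discs, with an overlap. None of these markers was at 0 counts in any of the 6 libraries. Without the 3 libraries with the most Lsp1beta (S replicate 1, NS replicate 1 and N replicate 2), 597 genes were called higher and 534 lower; the part of the other cell types in the remaining changes was not tested.

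The remaining lists are given by their counts and by the range of these counts over the 7 fits that leave out a library. Of all genes tested 12.5% were higher and 10.6% lower. No count here is read as a result about its list. In the septate junction list 1 was higher and 2 lower of 25, with 0 to 5 higher and 0 to 4 lower. In the adherens junction list 1 was higher and 1 lower of 11, with 1 higher and 0 to 2 lower. In the integrin list 3 were higher and 1 lower of 14, with 3 to 7 higher and 1 lower. In the tricarboxylic acid cycle list 4 were higher and 0 lower of 20, with 0 to 9 higher and 0 to 2 lower. In the insulin and TOR list 5 were higher and 2 lower of 25, with 4 to 9 higher and 1 to 6 lower. In the hormone metabolism list 2 were higher and 2 lower of 13, with 1 to 4 higher and 1 to 3 lower. In the temporal identity list 2 were higher and 1 lower of 7, with 1 to 3 higher and 0 to 2 lower. In the cell death list 3 were higher and 1 lower of 23, with 3 higher and 0 to 3 lower. In the iron, metal and detoxification list 2 were higher and 5 lower of 26, with 0 to 2 higher and 4 to 7 lower. In the peripodial and cuticle formation list 2 were higher and 5 lower of 27, with 1 to 2 higher and 4 to 11 lower. In the dosage compensation and sex list 1 was higher and 1 lower of 15, with 0 to 2 higher and 1 to 4 lower. In the longer fat body list 3 were higher and 1 lower of 21, with 1 to 3 higher and 1 to 3 lower. In the longer adult muscle precursor list 3 were higher and 5 lower of 26, with 1 to 5 higher and 4 to 9 lower. In the longer neuronal and glial list 3 were higher and 1 lower of 23, with 1 to 6 higher and 1 to 2 lower.

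**Figure D5:**
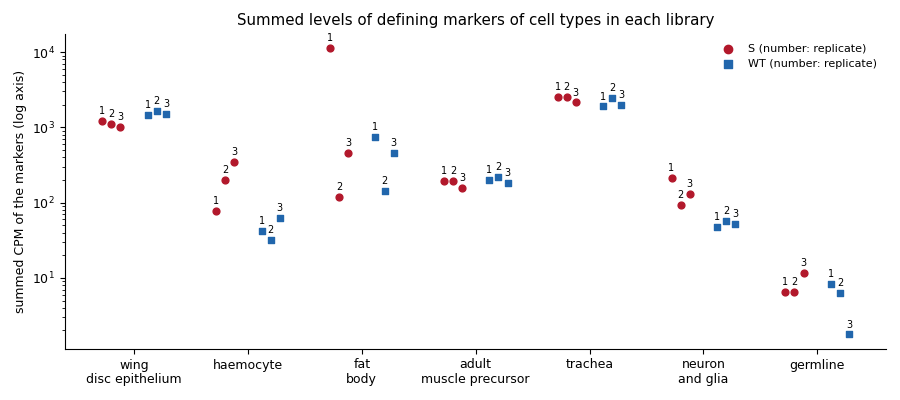
Summed CPM (log axis) of the defining markers of 7 cell types in each library, with S replicates as red circles left of WT replicates as blue squares and replicate numbers above the points. S replicate 1 stands at 11291 CPM for fat body and is highest for neurons and glia, and haemocyte sums are 76.6 to 349 CPM in S libraries, against 32.2 to 61.8 CPM in WT libraries.

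NS discs, which carry scrib1 with the driver and UAS Nicd but with no deficiency listed, give a second setting for the same genes. S larvae were mutant for scrib throughout, whereas the driver of NS discs works only in recombined cells. The share of scrib mutant cells in NS discs was not measured, and S and NS discs can differ in it. S discs were set against NS discs in the same fit, where 2.18% of tested genes were higher in S and 1.51% lower. NS replicate 3, which was low in long transcripts, is part of this comparison. The comparison was not refitted without it or without any other library. Several genes named above were not called in that comparison: Ilp8 (log2 change −1.02, adjusted p = 0.333), upd3 (log2 change −0.92, adjusted p = 0.329), Mmp1 (log2 change 0.76, adjusted p = 0.261) and chinmo (log2 change −0.57, adjusted p = 0.66), and neither did ImpE2 (log2 change 0.64, adjusted p = 0.585) and cher (log2 change 0.15, adjusted p = 0.892). cher had 1914, 2300 and 584 CPM in NS discs, lowest in NS replicate 3. Other genes named above were called against NS as well. CG14692, at the S values given above, had 0.238, 0.0985 and 0.287 CPM in NS discs (log2 change 9.96, adjusted p = 1.19e-06). mthl8, at 0.0537 CPM or less in S discs, had 20.9, 19.8 and 17.9 CPM in NS discs, and CG13053, at 0.406 CPM or less in S discs, had 19.4, 36.2 and 36.3 CPM in NS discs (log2 change −7.12, adjusted p = 2.33e-05). w (log2 change −3.93, adjusted p = 2.17e-05) and Hsp70Bb (log2 change −3.68, adjusted p = 0.00109) were lower than in NS discs, and pdm2 (log2 change −1.35, adjusted p = 0.00481) and vg (log2 change −2.11, adjusted p = 0.00148) too. Timp was higher (log2 change 3.35, adjusted p = 5.98e-05), and Ance was higher than in NS discs (log2 change 2.67, adjusted p = 0.00999) while lower than in WT discs.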

How the data were processed

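The authors deposited a table of raw read counts per gene for 12 libraries, 3 for each of 4 groups. Per the labels' protocols, RNA was taken with Trizol from pools of 60 wing discs and made into stranded mRNA libraries. Per the submitters' processing notes, TopHat2 2.0.9, Bowtie2 2.1.0, HTSeq, edgeR and DESeq were used with build dm6; no source used here gives the annotation release or the strand setting. Of the 17716 gene symbols 13320 matched a current symbol and 4215 a synonym in the Ensembl annotation, and 2 lines with no gene name were left out.

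Counts were filtered with filterByExpr, scaled by TMM and fitted with edgeR 4.0.16 (R 4.3.3, limma 3.58.1) by the quasi-likelihood test over all 12 libraries, with 8 residual degrees of freedom. S minus WT was tested with Benjamini-Hochberg adjustment over 9444 genes at 0.05. CPM values use the TMM library sizes. In a simulation of S against WT over 9327 genes, 32 of 100 genes with a 2-fold change and 73 of 100 with a 4-fold change were recovered, 0 with the wrong sign, and 5 unchanged genes were called. Library totals over all 12 libraries were 21024017 to 42407447 counts. Alternatives were DESeq2 1.42.0, other scaling, no filter, S and WT alone, a replicate block, WT replicate 1 alone, a length correction (lowess span 0.3) and left-out libraries. No replicate pair held identical values.

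Named genes were the 15 highest and 15 lowest log2 changes among called genes without overlap that averaged 5 CPM or more, the 12 largest gains and 12 largest losses in CPM, in each list the 8 members of smallest adjusted p, the genotype markers and the genes beside scrib. Other genes, such as pathway members that did not pass the test, were chosen after their values were seen. The members and lists were chosen with earlier results of these data known. The results of 1 gene list are not reported here.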

Additional observations from a re-analysis of the deposited data

How the results depend on the processing

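No gene called in S against WT was called in the opposite direction under any alternative. Against 1181 genes higher and 1000 lower, counts were 1562 and 1516 with DESeq2, 1812 and 1767 with the length correction, and 268 and 416 with WT replicate 1 as the one WT library, whose spread is then assumed to be like that of the other groups. Leaving out 1 library gave 559 to 2268 higher and 617 to 1988 lower genes. Chosen after seeing the data, leaving out both libraries low in long transcripts gave 2245 and 2312, and leaving out the 3 with the most Lsp1beta gave 597 and 534. A replicate block gave 1100 and 896; same-numbered S and WT libraries had correlations of 0.03, −0.02 and −0.45, so equal numbers were not taken as pairs. The causes of these shifts were not tested. In the simulated S against WT comparison 32 of 100 genes changed by 2-fold were recovered, and changes of that size can be missed with 3 pools a group. The simulation changed far fewer genes than were called in the data and held no trend with length. Its recovery therefore does not measure the share of such changes missed in the data. Genes that did not pass the test and whose log2 change was near 0 or rested on 1 library changed sign under some settings. With DESeq2 the log2 change was −0.025 for Diap1, −0.022 for Jra, −0.0021 for baz and −0.0033 for uif. With RLE size factors the log2 change was −0.025 for Diap1, −0.022 for Jra, −0.0021 for baz and −0.0033 for uif. With S and WT libraries fitted alone the log2 change was −0.015 for Diap1 and −0.011 for Jra. With WT replicate 1 alone the log2 change was −0.0077 for Diap1, −0.18 for Jra, 0.066 for ap, 0.14 for hid, −0.050 for kay, 0.081 for shg and 0.081 for wg. Without both libraries low in long transcripts the log2 change was 0.0058 for Hsp83, −0.28 for Jra, 0.020 for LanB1, 0.0054 for ap and 0.0029 for dlg1. With the length correction the log2 change was 0.10 for EcR, 0.063 for Hsp83, −0.12 for Jra, 0.032 for LanA, 0.19 for LanB1, 0.0059 for Mmp2, −0.047 for PCNA, 0.14 for Ser, 0.047 for Stat92E, 0.070 for aPKC, 0.18 for ap, 0.0019 for arm, 0.25 for dlg1, 0.10 for hid, 0.10 for mew, 0.12 for sd and 0.21 for shg. With no filter the log2 change was 0.0079 for Hsp83. With the replicate block the log2 change was 0.0044 for Hsp83, −0.011 for Jra, −0.014 for tefu and −0.068 for uif. Without the 3 libraries richest in Lsp1beta the log2 change was −0.010 for Diap1, −0.38 for Lsp1beta, −0.089 for baz, −1.89 for brp, 0.047 for hid, −0.11 for tefu and −0.13 for uif. Over the fits that leave out 1 library it ran from −0.073 to 0.10 for Diap1, −0.28 to 0.30 for Hsp83, −0.28 to 0.19 for Jra, −0.26 to 0.022 for LanB1, −0.37 to 4.12 for Lsp1beta, −0.38 to 0.23 for aos, −0.091 to 0.051 for ap, −0.087 to 0.18 for baz, −1.89 to 6.55 for brp, −0.18 to 0.0058 for dlg1, −0.0039 to 0.19 for dome, −0.41 to 0.059 for hid, −0.084 to 0.35 for kay, −0.10 to 0.31 for tefu and −0.14 to 0.32 for uif.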
